A study of Homo sapiens with 18 samples.

Results

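CBFB, the RUNX transcription factors and the corepressors of the Groucho (TLE) and ETO (CBFA2T) families were examined in MCF10A cells, a non-tumorigenic line of human breast epithelium. The 10 genes CBFB, RUNX1, RUNX2, TLE1, TLE2, TLE3, TLE4, CBFA2T2, CBFA2T3 and RUNX1T1 were chosen by symbol and followed through the deposited tables by Entrez identifier. Of the 10 genes, 9 were listed in all 3 tables and CBFA2T3 in none, among 19401 genes listed in at least 1 table. RNA had been sequenced from 18 samples in 5 groups. CBFB KO cells and their WT had 3 libraries each, while 4 libraries each were made from RUNX1 KO1, from RUNX1 KO2 and from the WT cells grown for the RUNX1 experiment. All cells were untreated MCF10A, and the knockouts were made with CRISPR-Cas9 and grown from single cells, so CBFB KO and each RUNX1 knockout are read here as 1 clone each.

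Each table gave 1 level per gene, the authors' mean of normalized counts over the knockout and WT libraries together. A mean of this kind does not separate the knockout from its WT, and carries no value per library, SD or test. With equal numbers of knockout and WT libraries, either group lies between 0 and 2 times the table mean, and complete loss in 1 group leaves 0.5 of the other group's level. The levels therefore describe MCF10A cells of each experiment, WT and knockout mixed. Whether CBFB or RUNX1 mRNA was lower in its own knockout was not examined here, and so the labels were not checked on the targeted gene.

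RUNX proteins bind DNA through the Runt domain, and CBFB, which does not touch DNA itself, binds this domain and strengthens its hold. A short motif at the end of RUNX proteins recruits Groucho/TLE corepressors, and ETO proteins are adaptors that bring corepressor complexes and their histone deacetylases to transcription factors. The same genes are known from leukemia, in which RUNX1 is fused to RUNX1T1 or CBFA2T3, and CBFB to a myosin gene. RUNX1 is the main RUNX factor of mammary epithelium, RUNX2 is best known from bone and RUNX3 from lymphoid and neural cells.

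The knockouts rest on 4 guide RNAs that the study lists for these genes, shown here because they define what the clones lack. Guides 23 and 31 were designed against CBFB and guides 67 and 69 against RUNX1, and which of them made each clone is not stated in the sources used here. They are written 5′ to 3′ in DNA letters with 4 bases of cloning overhang removed, and the capitals in guide 31 mark the 10 bases that match an exon end.
Guide 23: gcagattgtcacttgaacgcg
Guide 31: gccgacttacGATTTCCGAG
Guide 67: gatttctttttaggttgcag
Guide 69: gttacaatgaggattctctct
None of the 4 guides matched a whole stretch of any of the 9 CBFB or 17 RUNX1 transcripts of GENCODE release 29. A whole match required all 21 bases of guides 23 and 69. Whether the first g of each belongs to the target was not checked. The capitals of guide 31 are the reverse complement of the last 10 bases of CBFB exon 2 (chr16:67029804-67029813, GRCh38, plus strand), an exon of 87 bases, so the match lies at the edge between this exon and the intron after it. Guides 23, 67 and 69 matched no exon edge over at least 9 bases, and their genomic positions were not analysed here.

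CBFB was among the well expressed genes of these cells. Its mean normalized count was 897 in the CBFB KO table, 1058 in the RUNX1 KO1 table and 931 in the RUNX1 KO2 table, which placed it above 73.1%, 80.3% and 79.3% of the listed genes. The level in the table that holds the CBFB knockout was thus the lowest of the 3, and the highest was 1.18 times the lowest.

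RUNX1, the DNA-binding partner of CBFB, had a mean of 1606 in the CBFB KO table, 922 in the RUNX1 KO1 table and 839 in the RUNX1 KO2 table. Both tables that include a RUNX1 knockout lay below the table that does not, with the highest value 1.91 times the lowest. The median over all listed genes fell too, at 244, 210 and 187, and whether the knockout lowered RUNX1 was not examined. RUNX2, the factor of bone formation, had a mean of 97.6, 30.8 and 24.7 in the same order, a 3.95-fold range that was the widest of the 9 listed genes. RUNX3 was close to absent from the reads. It was listed at 0.162 in the CBFB KO table and 0.0970 in the RUNX1 KO2 table, which is what 1 read in 1 library is worth in each, and it was not listed in the RUNX1 KO1 table.

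Of the Groucho genes, TLE1, TLE3 and TLE4 had means of at least 100 in every table and TLE2 did not. TLE3 had a mean of 514 in the CBFB KO table, 423 in the RUNX1 KO1 table and 382 in the RUNX1 KO2 table. TLE1 had 415, 392 and 355, and TLE4 had 184, 175 and 160. In each of these 3 genes the CBFB KO table had the highest mean and the RUNX1 KO2 table the lowest. The median over all listed genes fell in the same order, at 244, 210 and 187, so this order is not particular to them. TLE2 went the other way, with 23.6 in the CBFB KO table, 43.1 in the RUNX1 KO1 table and 44.1 in the RUNX1 KO2 table. The short family member TLE5 (listed under its older symbol AES), which lacks the repeat domain of full Groucho proteins and is known to dampen their repression, had means of 4378, 4744 and 5436. TLE6, an oocyte-associated member, had 3.71, 5.58 and 5.71.

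CBFA2T2, also known as MTGR1, had a mean of 403 in the CBFB KO table, 264 in the RUNX1 KO1 table and 246 in the RUNX1 KO2 table. RUNX1T1, the gene known as ETO, was near the detection limit at 6.94, 4.23 and 5.37. These means rest on 42, 34 and 43 normalized reads summed over 6, 8 and 8 libraries, so differences among them cannot be told from counting error. CBFA2T3 (also ETO2 or MTG16), best known from blood cells, was the member listed in no table.

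**Figure D1:**
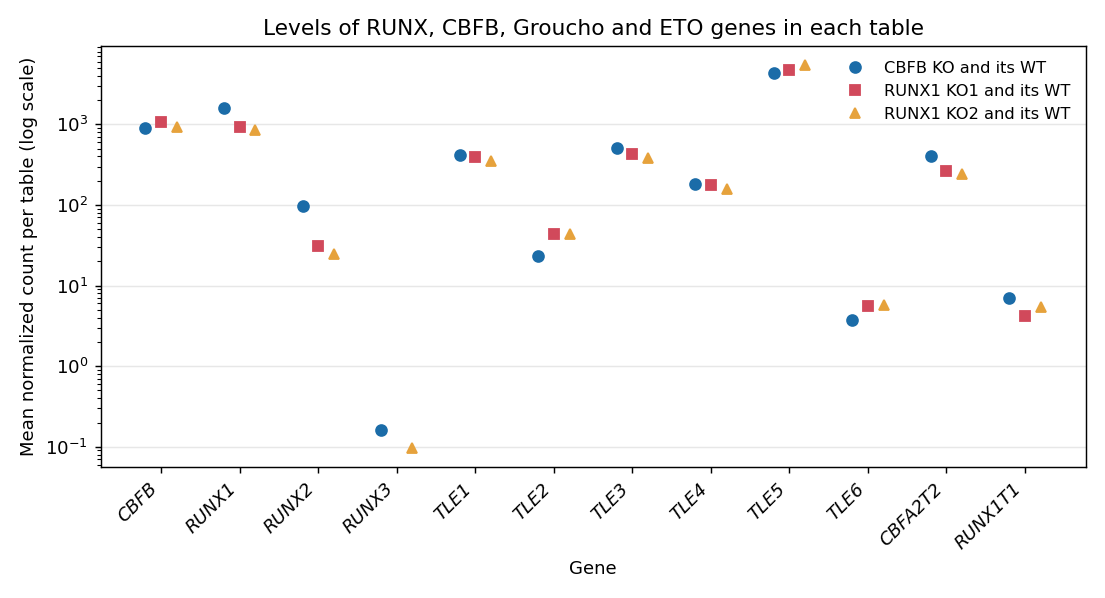
Mean normalized count (log axis) of each gene in the 3 tables, 1 point per table over its knockout and WT libraries together, with no error because the tables hold no value per library. RUNX2 spreads from 24.7 to 97.6 and TLE2 from 23.6 to 44.1 in the opposite order, while TLE1, TLE3, TLE4 and CBFB stay close together, and RUNX3 has points in only 2 tables.

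Levels of different genes were compared per kb of the longest annotated transcript. On this scale TLE5 led with 1337 to 1660 normalized counts per kb over the 3 tables, followed by CBFB with 286 to 337, RUNX1 with 115 to 221 and TLE1 with 91.1 to 107. TLE3 came next with 48.9 to 65.9. It lay above TLE4 and CBFA2T2 within every table. TLE4 with 32.8 to 37.8 and CBFA2T2 with 31.5 to 51.6 changed places, CBFA2T2 being higher in the CBFB KO table and TLE4 in both RUNX1 tables. RUNX2 with 4.20 to 16.6 overlapped TLE2 with 8.72 to 16.3. TLE6 stood at 1.77 to 2.72, RUNX1T1 at 0.550 to 0.903, and RUNX3, where listed, at 0.0224 to 0.0373.

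CBFB transcripts exceeded those of its partners on the per-kb scale. Means not divided by length put RUNX1 first in the CBFB KO table, at 1606 against 897 for CBFB. In the RUNX1 KO1 and RUNX1 KO2 tables they put CBFB first, at 1058 against 922 and 931 against 839. The level of CBFB per kb was 1.20 times the summed RUNX level in the CBFB KO table, 2.56 times in the RUNX1 KO1 table and 2.48 times in the RUNX1 KO2 table. The RUNX sum itself was 237, 132 and 120 per kb. The summed level of TLE1 to TLE4 was similar across tables at 219, 207 and 189 per kb, and TLE5 alone was 6.11, 7.02 and 8.78 times this sum.

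Within the families, the per-kb shares were nearly constant for some members and not for others. RUNX1 made up 93.0% of the RUNX sum in the CBFB KO table, 96.0% in the RUNX1 KO1 table and 96.5% in the RUNX1 KO2 table, and RUNX2 made up 6.99%, 3.97% and 3.51%. The higher RUNX2 share stood in the table with the higher RUNX1 level. TLE1 was 48.7%, 48.7% and 48.2% of the Groucho sum, and TLE4 17.2%, 17.3% and 17.3%. TLE2 took 3.98%, 7.71% and 8.62%, and TLE3 took 30.1%, 26.2% and 25.9%. CBFA2T2 was 98.3%, 98.4% and 97.8% of the ETO sum, which holds only CBFA2T2 and RUNX1T1 because CBFA2T3 was not listed. A gene not listed need not be absent. KRT14 had a mean of 9515 in the RUNX1 KO1 table and was not listed in the RUNX1 KO2 table. Shares depend on the length used. Per coding length, TLE3 led TLE1 in every table, with 45.1%, 40.8% and 40.5% against 37.0%, 38.4% and 38.2%.

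**Figure D2:**
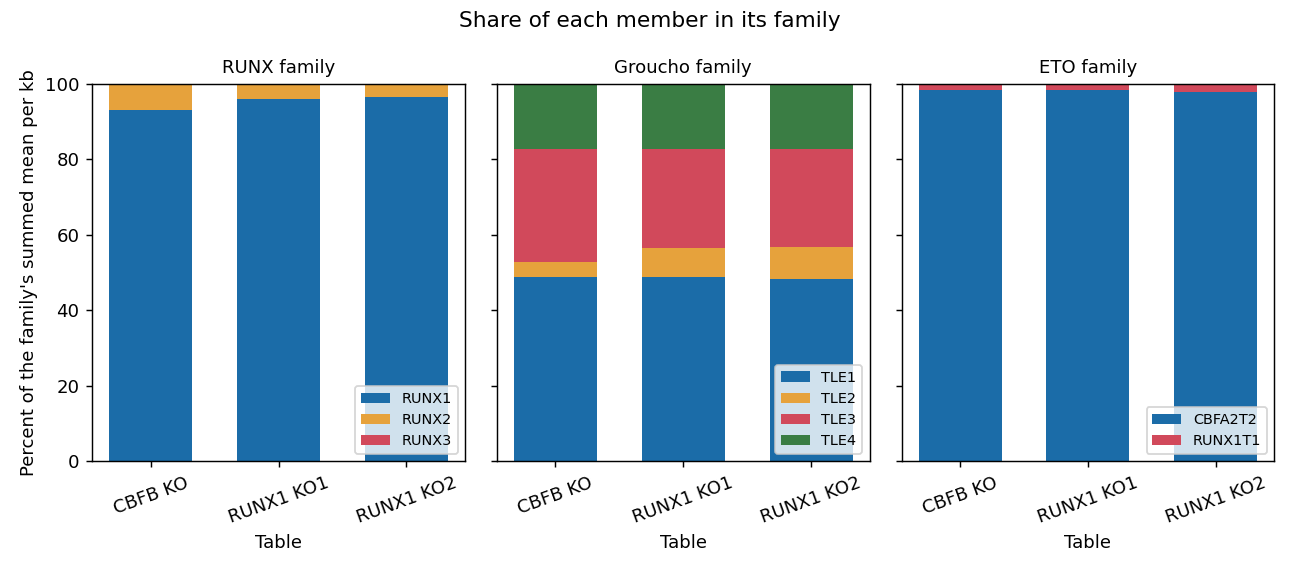
Share of each member in the summed mean per kb of its family (percent), for each of the 3 tables, as stacked bars with no error because the tables hold no value per library. RUNX1 and CBFA2T2 fill most of the sum of their listed family members in every table, CBFA2T3 not being listed. In the Groucho family TLE2 widens from 3.98% to 8.62% while TLE1 stays between 48.2% and 48.7%.

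TLE1 and TLE4 share stretches of sequence, which limits how firmly reads can be given to 1 of them. Of all words of 31 bases in the annotated TLE1 transcripts, 8.58% also occurred in another gene, either TLE4 or the pseudogene TLE1P1. For TLE4 the share was 4.57%, with TLE1 or with AL353813.1. How much of either share lies with each of these partners was not counted. For TLE3 it was 0.0152%, for CBFB 0.0958% and for RUNX2 0.299%. The 6.47% of CBFA2T2, 2.39% of TLE2 and 1.71% of RUNX1 were words found in many unrelated genes. How the authors' counting treated such reads is not given in the sources used here, so the levels of TLE1 and TLE4 are uncertain by the part that such reads make up. TLE1 and TLE4 are neighbors on chromosome 9, and TLE6, TLE2 and TLE5 lie in this order on chromosome 19, with 0 protein-coding genes between them in the RefSeq annotation of GRCh38.p14.

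To set the tables beside each other, the log2 ratio of a gene's means was centred on the median ratio of all genes whose mean reached 100 in both. Genes that pass this minimum are called well expressed in what follows. That median was 0.23 on the log2 scale between the CBFB KO and RUNX1 KO1 tables, 0.35 between the CBFB KO and RUNX1 KO2 tables and -0.10 between the RUNX1 KO2 and RUNX1 KO1 tables. The tables had been normalized separately, and each experiment used WT libraries of its own, so that a ratio between them mixes the clones, the WT cells and the libraries, which cannot be told apart. The ratios are descriptions with no test. For counting, a gene was past the limit where its centred ratio lay beyond 0.32 on the log2 scale in either direction. Intervals given with them cover counting error only (95%, exact Clopper-Pearson, on mean times number of libraries).

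Between the CBFB KO and RUNX1 KO1 tables, 5 of the 8 members with means of at least 20 in both were past the limit. RUNX1, RUNX2 and CBFA2T2 were higher in the CBFB KO table, and CBFB and TLE2 were lower. The same 5 genes were past the limit in the same directions against the RUNX1 KO2 table. These counts stand against a high background. Of all well expressed genes, 36.4% were past the limit in the first pair and 50.5% in the second, and of genes in a lower band, with means that reached 20 in both tables but not 100, it was 55.7% and 62.6%. Against this background the count is not a result about these genes, and only the size of single ratios sets some of them apart.

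RUNX2 had the largest ratio of the members. Its centred log2 ratio was 1.43 (1.21 to 1.65) against the RUNX1 KO1 table, a 2.70-fold higher mean, and 1.64 (1.40 to 1.88) against the RUNX1 KO2 table, 3.11-fold. These ratios exceeded those of 99.8% and 99.9% of the well expressed genes, to which RUNX2 with means under 100 does not belong. In its own lower band of means, 12.3% and 16% of genes lay beyond 2-fold either way. Because both folds of RUNX2 are above 2, at least 1 group of the CBFB experiment had a RUNX2 level above both groups of either RUNX1 table on the centred scale. Which group that was cannot be read from the means.

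TLE2 had the lowest ratios. They were -1.10 (-1.39 to -0.81) against the RUNX1 KO1 table and -1.25 (-1.54 to -0.96) against the RUNX1 KO2 table, so that the mean in the CBFB KO table was 2.14-fold and 2.38-fold lower. Only 0.703% and 0.775% of the well expressed genes had lower ratios. Of the genes in the lower band of means to which RUNX2 and TLE2 belong, 12.3% lay beyond 2-fold in the first pair and 16% in the second.

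RUNX1 and CBFA2T2 were both moderately higher in the CBFB KO table. RUNX1 had a centred log2 ratio of 0.57 (0.53 to 0.61) against the RUNX1 KO1 table and 0.59 (0.55 to 0.64) against the RUNX1 KO2 table, or 1.49-fold and 1.51-fold. CBFA2T2 had 0.38 (0.29 to 0.46) and 0.37 (0.28 to 0.46). CBFB was lower in the table that includes its knockout, at -0.47 (-0.52 to -0.42) and -0.40 (-0.45 to -0.35). TLE1, TLE3 and TLE4 stayed within the limit, with ratios from -0.15 to 0.08 over both pairs.

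Between the 2 RUNX1 tables, 0 of the 8 members were past the limit, where 5.78% of all well expressed genes and 14.1% of those in the lower band were. RUNX1 had a centred log2 ratio of -0.03 (-0.08 to 0.02) and CBFB of -0.08 (-0.13 to -0.04). RUNX2 had -0.22 (-0.50 to 0.05) and TLE2 0.14 (-0.08 to 0.35), with intervals that span 0. The labels give 1 WT group for both RUNX1 clones, and shared WT libraries draw this ratio toward 0 for every gene. RUNX1T1, with a mean near 5, had a ratio of 0.45 with an interval from -0.24 to 1.14.

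**Figure D3:**
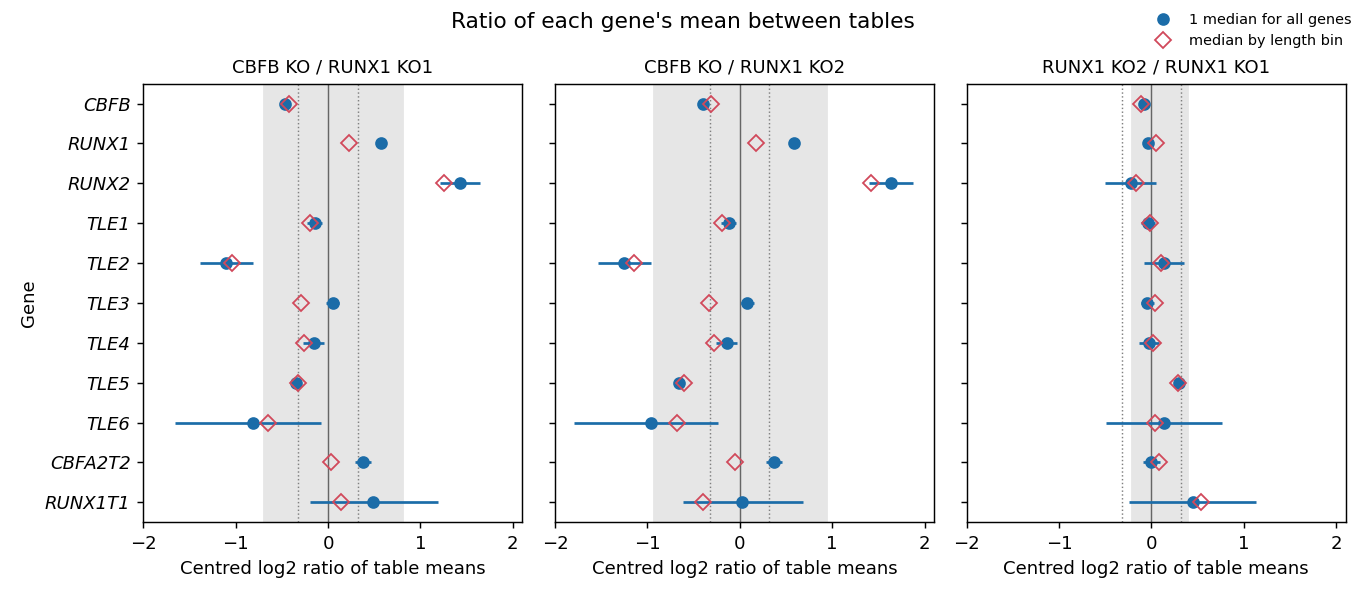
Centred log2 ratio of each gene's mean for the 3 pairs of tables (filled circles, with bars for the 95% interval of counting error alone), and the same ratio centred on genes of similar transcript length (open diamonds). Grey bands span the central 95% of well expressed genes and dotted lines mark the limit of 0.32 either way. RUNX2 lies above the band and TLE2 below it in both CBFB KO pairs, RUNX1 and CBFA2T2 move toward 0 when length is taken into account, and in the RUNX1 KO2 to RUNX1 KO1 pair RUNX1T1 lies above the band and RUNX2 just below it.

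The ratios between experiments moved with transcript length. Across 10446 well expressed genes of known length, the centred log2 ratio of the CBFB KO table to the RUNX1 KO1 table had a Pearson correlation of 0.50 with log2 length, as a description across genes, which are not independent and share the same libraries. The median ratio was -0.30 in the shortest 10% of transcripts and 0.39 in the longest 10%. Against the RUNX1 KO2 table the correlation was 0.52, and between the RUNX1 tables it was -0.49. The RUNX1 transcript is long at 7274 bases, and so are those of CBFA2T2 at 7803 and TLE3 at 7809, whereas that of CBFB has 3136 and that of TLE2 has 2705.

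When each gene was centred on genes of similar length, RUNX1 was no longer past the limit, with a log2 ratio of 0.23 against the RUNX1 KO1 table and 0.17 against the RUNX1 KO2 table. CBFA2T2 fell to 0.03 and -0.05. RUNX2 stayed at 1.26 and 1.42 and TLE2 at -1.04 and -1.14, so both remained beyond 2-fold. CBFB had -0.42 and -0.31, the second just inside the limit. TLE3 came to -0.29 and -0.34, the second just outside. With genes of similar GC content in place of length, RUNX1 at 0.54 and 0.57 and CBFA2T2 at 0.41 in both pairs stayed past the limit, and CBFB had -0.63 and -0.61. TLE1 came to 0.00 and 0.12, and TLE4 stayed at -0.18 and -0.17. In the same centring RUNX2 had 1.40 and 1.61, TLE2 had -0.85 and -0.91 and was no longer beyond 2-fold, and TLE3 had 0.23 and 0.34, opposite in sign to the value by length. The longest TLE2 transcript is 63.7% GC, above 94.7% of genes expressed in all tables. Which part of the ratios length or base composition accounts for was not tested.

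**Figure D4:**
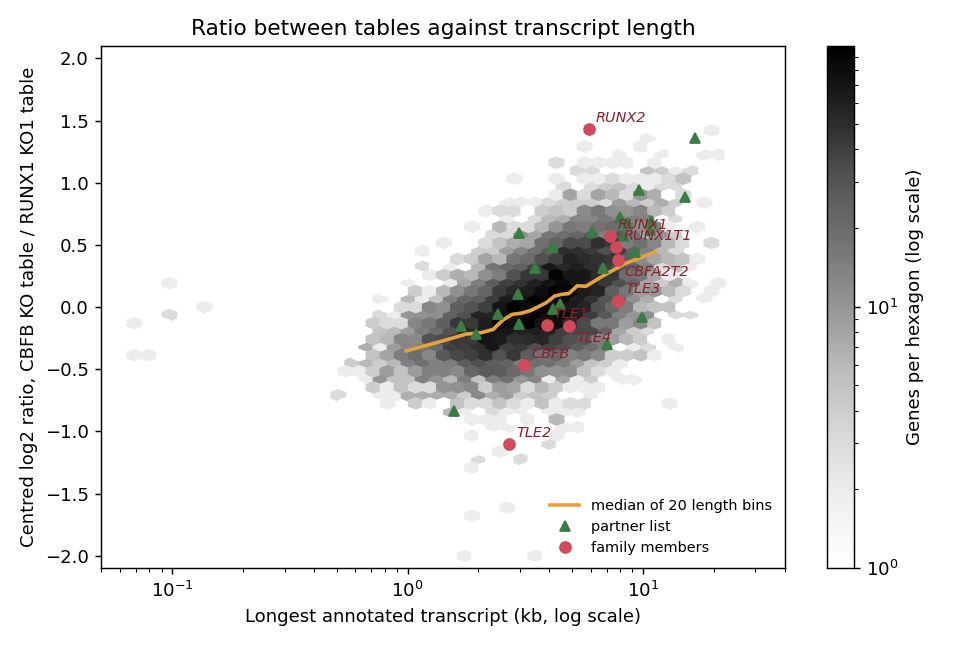
Centred log2 ratio of the CBFB KO table to the RUNX1 KO1 table against the length of the longest annotated transcript (kb, log axis), with hexagons for the well expressed genes, their median in 20 length bins as a line, family members as circles and partner genes as triangles, and ratios past 2 drawn at 2 on either side. The line climbs with length, RUNX1 and CBFA2T2 lie near it, and RUNX2 and TLE2 lie far from it.

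Genes that work with RUNX and Groucho proteins were read from a list of 24, of which 23 were well expressed in the CBFB KO and RUNX1 KO1 tables. Of these, 12 were past the limit on the side of the CBFB KO table and 1 was lower, with a median centred ratio of 0.44, against 0 for all genes by construction. These 13 of 23 stand beside the 36.4% of all well expressed genes. After centring by length, 8 were higher and 3 lower, where 26.4% of all well expressed genes were past the limit. Against the RUNX1 KO2 table, 13 of 22 were higher and 2 lower beside 50.5%, and 8 and 2 after centring by length beside 38.2%. Nothing particular to the list is read from these counts. Of 22 compared between RUNX1 KO2 and RUNX1 KO1, 0 were past the limit, beside 5.78% of all well expressed genes.

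The corepressor subunits NCOR1 and TBL1XR1 were higher in the CBFB KO table than in the RUNX1 KO1 table by 0.62 and 0.73 on the log2 scale, and by 0.18 and 0.38 once centred by length. By length, 2 of the 8 corepressor genes were past the limit on the high side and 2 on the low side, the latter being the NCoR subunit TBL1X and the deacetylase HDAC2, both at -0.52 (and -0.37 and -0.60 against the RUNX1 KO2 table). Without centring by length, TBL1X had -0.30 and HDAC2 -0.08, both within the limit (and -0.09 for each against the RUNX1 KO2 table). The NCoR deacetylase HDAC3 had -0.22, and 0.01 by length. SIN3A, the scaffold of a further deacetylase complex, had 0.32, just inside the limit, and HDAC3 and SIN3A were past it only against the RUNX1 KO2 table, at -0.36 and 0.43, and at 0.00 and 0.14 by length they were not. The coactivators, which write acetyl or methyl marks on histones, were all higher in the CBFB KO table. The acetyltransferases EP300, CREBBP and KAT6A had 0.94, 0.69 and 0.44, and the methyltransferase KMT2A, which binds RUNX1, had 1.36. By length these became 0.50, 0.25, 0.00 and 0.92.

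Among the E proteins, dimer partners of tissue-specific factors that ETO proteins bind, TCF4 had 0.57 and TCF12 had 0.60. By length TCF4 had 0.23, within the limit, and TCF12 had 0.43. The E protein TCF3 was within the limit both ways, at 0.03, and -0.05 by length. Of the factors that recruit Groucho proteins, the NOTCH effector HES1 was lower in the CBFB KO table at -0.84, and -0.61 by length. The WNT effectors TCF7L1 and TCF7L2 were higher at 0.60 and 0.49, and these changed little by length at 0.64 and 0.43. HIPK2, a kinase that phosphorylates RUNX1, had 0.89, or 0.44 by length. HNRNPK and EIF4B, the proteins through which the study links CBFB to translation, stayed within the limit in every pair, with 0.10 and -0.02 in this one.

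Genes whose ratios were closest to those of a member were sought over 2 ratios, CBFB KO to RUNX1 KO1 and RUNX1 KO2 to RUNX1 KO1, among genes whose mean reached 100 in all tables. With only 2 values per gene, many genes lie close to any point. The 3 nearest to RUNX1 were PEG10, SLC35B4 and TRERF1, each at a distance of 0.01 on the log2 scale. For CBFB they were MC1R, ADGRE2 and SYT7, and for CBFA2T2 CCNL2, CDK19 and SAV1. Among those nearest to RUNX2 were TRIO at 0.01 and ATM at 0.07, and TLE2 had GSN, MELTF and CSF1R at 0.06, 0.08 and 0.08. RUNX1T1 had NQO1, LDLRAD2 and MIR3198-2 at 0.09, 0.12 and 0.17. The counting intervals of RUNX1T1 in the 2 ratios, -0.20 to 1.19 and -0.24 to 1.14, are wider than these distances. Those of RUNX2, 1.21 to 1.65 and -0.50 to 0.05, are also wider than its distances, so the nearest genes of both are uncertain.

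RUNX proteins bind the core letters TGTGGT, read as ACCACA on the other strand, and this motif was searched on both strands in windows from 250 bases before to 50 bases after each annotated start. It was found in 13.1% of all 35116 windows. The members other than CBFB and RUNX1T1, 8 genes, had 13 windows, of which 2 held the motif, 1 window each of RUNX2 and TLE3. The window of RUNX2 held 4 matches. A 30-base stretch with 2 of them is shown because RUNX2 had the widest range of levels, at chr6:45328338-45328367 on the plus strand of GRCh38.p14 (RefSeq), with the motif in capitals.
RUNX2: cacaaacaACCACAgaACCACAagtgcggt
The matches in it begin 16 and 24 bases after the annotated start. A match of 6 letters is a description of this window and not a measured binding site, and the binding of RUNX proteins was not measured in these libraries.

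The cell type given by the labels was read from its markers. The mammary epithelial markers KRT5, KRT14, KRT17, TP63, ITGA6 and CDH1 were listed in every table with means of at least 729.9, except that KRT14 was not listed in the RUNX1 KO2 table. KRT17 ranged from 10526.5 in the CBFB KO table to 68408.4 in the RUNX1 KO2 table. The blood markers PTPRC, CD34 and SPI1 had a summed mean of at most 1.06 in any table. Of the fibroblast markers, PDGFRA ranged from 466 to 633 and COL1A1 from 236 to 305, while COL1A2 was listed at 0.145 in the CBFB KO table and not in the others. Of the luminal markers, KRT8 ranged from 6334 to 11418 and KRT18 from 13779 to 17998, while ESR1 ranged from 53.9 to 77.6 and PGR was not listed. Size factors of the libraries, read from the means of genes with 1 read in 1 library, ranged from 0.657 to 1.18 in the CBFB KO table, from 0.921 to 1.10 in the RUNX1 KO1 table and from 0.562 to 1.29 in the RUNX1 KO2 table. The summed means were 20214423, 18050386 and 16467400 normalized counts per library.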

How the data were processed

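RNA of MCF10A cells was sequenced in 18 libraries grouped by their labels. The labels name a poly(A) kit (TruSeq mRNA), while the study's methods describe rRNA removal, and which was used is not settled by the sources used here. The submitters' processing notes name Trimmomatic, STAR, DESeq2 and the build hg19, with no versions. The deposited data used here are, per gene and table, the authors' mean of normalized counts over knockout and WT libraries, treated as a signal. The tables also hold the authors' log2 fold changes, their standard errors, test statistics and p-values for knockout against WT, which are the study's own findings and were not used. The tables hold 0 columns of other samples' values and no column per library, so no test, SD or paired fit was made. Whether replicates came from separate cultures is not stated.

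Genes were joined by Entrez identifier and named by RefSeq (GRCh38.p14). Transcript lengths, coding lengths and GC content came from GENCODE release 29 (GRCh38), longest transcript per gene, and covered 99.0% of genes whose mean reached 100 in any table. Ratios between tables were centred on the median over genes whose mean reached 100 in both, and 0.32 on the log2 scale was the limit for counting. All members, the related genes RUNX3, TLE5 and TLE6, and those of a list of partner genes beyond the limit in any pair are named. The likeness rule took the 3 nearest genes for each member beyond the limit. Values of a few genes that these rules select are not reported here. Members and lists were chosen with earlier results of these data known. Alternatives were the ratio of sums, minimum means of 10 and 1000, a 1.5-fold limit, undivided means, coding length and, added after the data were seen, medians within 20 bins of length or GC. The centring was tested on simulated data with a known scaling, counting noise and a set of changed genes. The simulation had no trend with length or GC content, so it does not cover the trend with length seen in these ratios. Python 3 with pandas, numpy and scipy was used. Protein identity within the families was planned and not run, and the guides were matched to transcripts only.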

Additional observations from a re-analysis of the deposited data

How the results depend on the processing

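No paired analysis was possible because the tables hold no value per library, and for the same reason no replicate was left out in turn. The number of members beyond the limit between the CBFB KO and RUNX1 tables was 5 in both pairs. Past it were 36.4% and 50.5% of genes with means of 100 or more, and 55.7% and 62.6% of those in the lower band. Centring on genes of similar transcript length gave 3 members in each pair, of which 1 was higher and 2 lower. With that centring, 26.4% and 38.2% of genes with means of 100 or more were past it, and 55.1% and 61.0% of those in the lower band. A 1.5-fold limit gave 2 against the RUNX1 KO1 table and 3 against the RUNX1 KO2 table, beside 10.9% and 21.8% of the first kind of gene and 30.7% and 39.1% of the second. The other alternatives gave 4 to 6 in these pairs. By GC content, 28.6% and 41.1% of the first kind of gene and 50.9% and 57.6% of the second were past the limit. Every alternative gave 0 between the RUNX1 tables. There 5.78% of the first kind were past the limit in the main setting, 2.83% by length, 3.89% by GC content and 0.216% at 1.5-fold. For the second kind it was 14.1%, 12.8%, 12.6% and 2.90%. These counts are not read as a result about the members. CBFA2T2 changed sign against the RUNX1 KO2 table when centred by length, from 0.37 to -0.0501, so its higher level in the CBFB KO table rests on the comparison with genes of other lengths. Of the ratios of single members under alternatives, 105 stayed within their counting interval, 29 moved outside it and 1, CBFA2T2, was past the limit and changed sign. Of the others, 11 ratios of 6 members, all within the limit and at most 0.12 in size, also changed sign, among them TLE3 by length in all 3 pairs and TLE1 by GC content. Of the family shares, 26 moved by at least 1 percentage point when another length or none was used. Depth limits RUNX3, TLE6 and RUNX1T1, with 1 read per table where listed, 22 to 46 and 34 to 43 summed normalized reads.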
